A study of Caenorhabditis elegans with 10 samples.

Results

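The genes described here encode proteins that release, bind, activate, lengthen and oxidise fatty acids in the nematode Caenorhabditis elegans. They were chosen by name from the authors' deposited table, as every protein-coding gene whose name is acs, lipl, lbp, far, elo, acdh, ech, acox or maoc followed by a number. The rule used no measured value and found 83 genes among the 46272 in the table, of which 20363 are protein-coding. DESeq2, a test on read counts, gave an adjusted p to 82 of the 83 genes and to 16802 genes in all. The missing one is lipl-8, with 0.0195 FPKM in ASH and 0.103 FPKM in the other cells in the authors' deposited table.

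The study asked which transcripts are enriched in ASH, a pair of head sensory neurons that drive avoidance of high osmolarity, touch and repellents. Wild-type worms were kept on NGM plates, the standard agar medium, with no treatment, and their cells were sorted by fluorescence. YFP-positive ASH neurons gave 5 libraries, and 5 more came from the YFP-negative cells, named non-ASH below. Age, sex and the promoter behind YFP were not given in the labels, and they do not say whether libraries of a group are from different cultures, so the p-values may measure technical spread only.

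Every level, fold change and p below was taken from the authors' deposited table of this comparison. It holds 1 level per group, in FPKM, which are fragments scaled to transcript length and to the fragments mapped, with no value for single libraries. Depth, standard deviations and errors of the fold changes are therefore unknown, and whether single libraries of the groups overlapped could not be read. Fold changes are those of DESeq2 on the log2 scale, ASH over non-ASH. A gene is called higher or lower in ASH at a DESeq2 adjusted p under 0.05. The study's second tool, Cuffdiff, gave a q for the same genes.

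Fatty acids are freed from stored or ingested lipid by lipases, held in solution by binding proteins and joined to coenzyme A by acyl-CoA synthetases. The activated acyl chain may then be lengthened by elongases in the endoplasmic reticulum. It may instead be shortened by beta-oxidation in mitochondria or peroxisomes, where acyl-CoA dehydrogenases or oxidases act first and enoyl-CoA hydratases second. In the worm these genes are best known from the intestine, the main fat store, and from the epidermis.

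The sorted groups differed in the markers of several tissues, and those values stand here because intestine and epidermis also use lipid genes. The ASH sort was visible in its own markers: 9 of 14 ASH genes were higher in ASH, none was lower, and their summed level was 834 FPKM in ASH against 124 FPKM in non-ASH per the authors' deposited table. Of 15 intestinal markers, 5 were higher in ASH and none lower by DESeq2, 14 had a positive fold change, and Cuffdiff called 6 higher and 1 lower. The intestinal list summed to 9548 FPKM in ASH against 2083 FPKM in non-ASH per the authors' deposited table. Most of the ASH sum came from spp-5 (4370 FPKM), asp-1 (3660 FPKM) and cpr-1 (1149 FPKM). Of 13 epidermal markers, 1 was higher and 4 were lower, with sums of 894 FPKM in ASH against 937 FPKM in non-ASH per the authors' deposited table. The gene col-19 alone held 792 FPKM and 711 FPKM of these sums, and the median log2 fold change of the epidermal list was -1.17. Pharyngeal markers were lower for 6 of 10, coelomocyte markers for 3 of 4 and amphid glia markers for 3 of 7, with none higher in those lists in the authors' deposited table. Body wall muscle had 1 of 10 markers higher and none lower, germ line 0 of 9 in either direction (1 lower by Cuffdiff, and 2 higher and 2 lower by unadjusted DESeq2 p under 0.05), and pan-neuronal genes 1 of 15 higher and none lower in the authors' deposited table. None of these markers was listed at 0 in either group. The part of other cell types in the results below was not tested.

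Of the 82 lipid genes tested, 7 were higher in ASH and 3 were lower in the authors' deposited table. The lysosomal lipase lipl-5, the enoyl-CoA hydratase ech-7, the acyl-CoA dehydrogenases acdh-10 and acdh-7 and the elongases elo-1, elo-2 and elo-6 were the higher genes. The fatty acid and retinol binding protein far-8, the acyl-CoA synthetase acs-1 and the dehydrogenase acdh-13 were the lower genes. In bulk RNA of sorted cells, fewer cells of a type and less RNA per cell cannot be told apart.

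The share of lipid genes called was 8.54% in the higher direction, against a background of 5.32% of all tested genes, and 3.66% in the lower direction, against 4.44%. At an unadjusted DESeq2 p under 0.05, 14 lipid genes (17.1%) lay higher and 9 (11%) lower in the authors' deposited table, against 11.4% and 12.3% of all genes. Genes with at least 5 FPKM in a group numbered 58 among the tested lipid genes, and all 10 calls fell among them, as 7 higher (12.1%) and 3 lower (5.17%). In the same range of levels, 7.24% of all genes were higher and 5.67% lower. By DESeq2 these shares lie near the background, with somewhat more lipid genes on the higher side. Cuffdiff called more, with 10 lipid genes (12.2%) higher and 6 (7.32%) lower, against 3.58% and 3.53% of all tested genes in the authors' deposited table. That Cuffdiff background was not limited to genes of at least 5 FPKM. The median level was 33.1 FPKM for tested lipid genes against 6.97 FPKM for all tested genes. No test of the differences between shares was made.

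Lipid genes were well expressed as a group. Their median level, as the mean of both groups, was 33.1 FPKM, against 6.97 FPKM for all tested genes, and 24 of the 83 reached 100 FPKM in at least 1 group while 5 stayed under 1 FPKM in both. The median log2 fold change of the 82 was 0.12, beside -0.09 for all tested genes, and 46 of them (56.1%) were positive, beside 45.7%. Among genes with at least 5 FPKM in a group, the median was 0.24 for lipid genes and 0.00 for all genes, with 63.8% and 49.9% positive. Among the 24 lipid genes under that level, 9 (37.5%) were positive, beside 39.6% of 6881 genes in all. Fewer lipid genes than genes in general lay within 1.5-fold of equality by DESeq2, with 35 (42.7%) beside 51.5%. At least 2-fold higher fold changes were given to 16 lipid genes (19.5%, beside 13.3%) and at least 2-fold lower ones to 11 (13.4%, beside 15.3%). The background of these 1.5-fold and 2-fold shares was not limited to genes of at least 5 FPKM. The part of level in them was not tested.

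**Figure D1:**
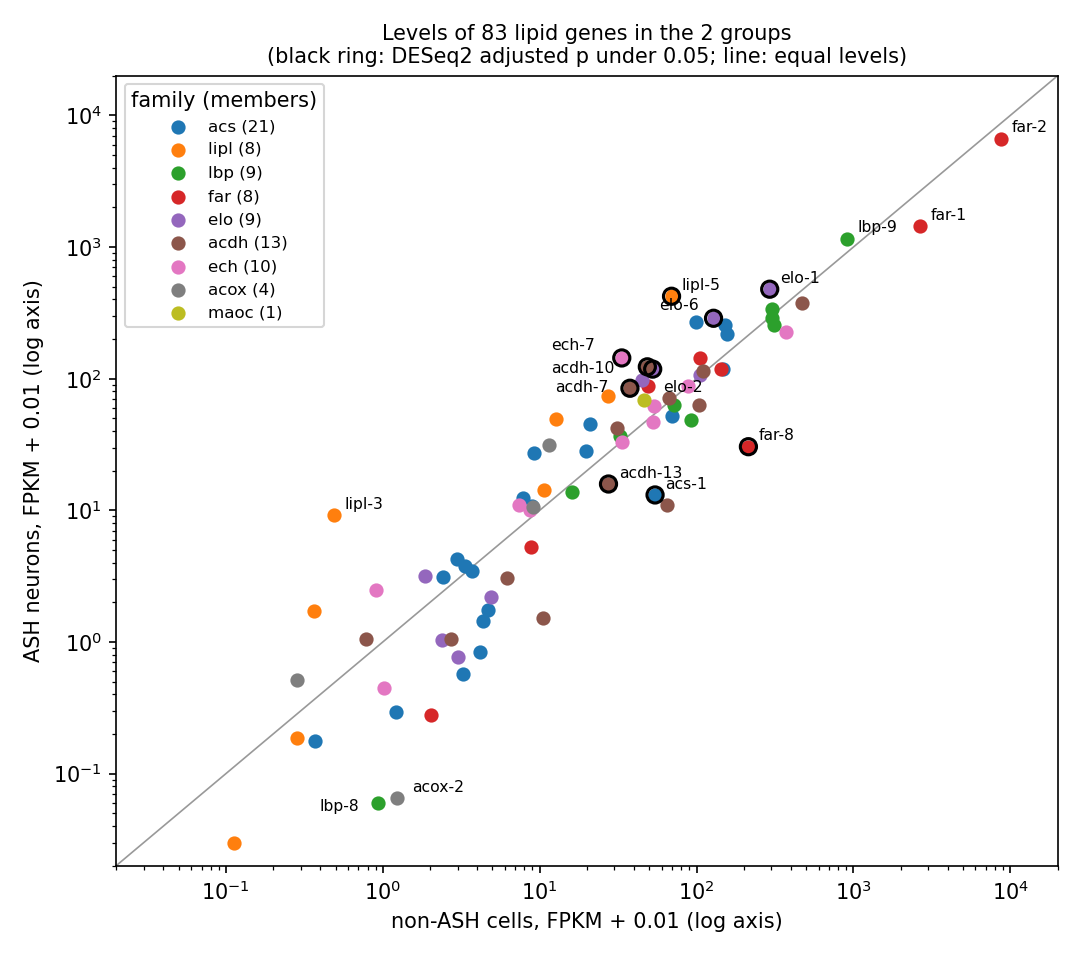
Level of each of the 83 lipid genes in non-ASH cells (x axis) and in ASH neurons (y axis), in FPKM plus 0.01 on log axes, coloured by family, with the line of equal levels. Black rings mark the 10 genes with a DESeq2 adjusted p under 0.05, which lie between 13.1 FPKM and 479 FPKM in ASH, while far-2 sits farthest out at 6679 FPKM in ASH, ahead of far-1 at 1434 FPKM and lbp-9 at 1157 FPKM.

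The lipl genes encode relatives of the lysosomal acid lipase that frees fatty acids from neutral lipid. Their median log2 fold change was 1.32, the largest among the families with more than 1 member, and 6 of 7 tested members were positive in the authors' deposited table. Only lipl-5 passed the DESeq2 threshold among them. The summed level of the 8 genes was 572 FPKM in ASH against 121 FPKM in non-ASH, of which lipl-5 made up the greater part in both groups. The 15 intestinal markers also summed to more in ASH, 9548 FPKM against 2083 FPKM, and their part in the lipase values was not tested.

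The level of lipl-5 (WBGene00022642, chromosome V) was 423 FPKM in ASH against 69.3 FPKM in non-ASH, a ratio of 6.10 in the authors' deposited table. The log2 fold change of lipl-5 was 2.41 with a DESeq2 adjusted p of 0.00972 and a Cuffdiff q of 0.00261 in the authors' deposited table. No other of the 82 lipid genes had a larger DESeq2 fold change.

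Other lipases had positive fold changes that DESeq2 did not call. The gene lipl-1 was at 49.2 FPKM in ASH against 12.6 FPKM in non-ASH, with an adjusted p of 0.459 and a Cuffdiff q of 0.00817 in the authors' deposited table. For lipl-3 the levels were 9.23 FPKM and 0.480 FPKM, with an adjusted p of 0.361 and a q of 0.00925 in the authors' deposited table. Cuffdiff called both higher and DESeq2 neither. The levels of lipl-2 were 74.0 FPKM in ASH against 27.4 FPKM in non-ASH, at a log2 fold change of 1.32 with an adjusted p of 0.411 in the authors' deposited table. The gene lipl-4, whose lysosomal product is linked to long life in worms, had a log2 fold change of 1.79 at an adjusted p of 0.261, from 1.70 FPKM in ASH against 0.356 FPKM in non-ASH per the authors' deposited table. Of the remaining lipases, lipl-7 was at 14.3 FPKM and 10.7 FPKM, and lipl-6 was under 1 FPKM in both groups.

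Binding proteins for fatty acids dominated the set by level. The far genes encode nematode fatty acid and retinol binding proteins. The lbp genes encode small proteins of the fatty-acid-binding protein family that carry lipid within or between cells. Of 9 lbp genes 0 were called in either direction by DESeq2 or Cuffdiff, and 0 had an unadjusted DESeq2 p under 0.05. By DESeq2 far-8 alone was called among the 8 far genes, of which 3 had an unadjusted p under 0.05, all 3 with negative fold changes in the authors' deposited table. The median log2 fold change was -0.14 for the 9 lbp genes, of which 3 were positive, and -0.55 for the 8 far genes, of which 2 were positive.

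The level of far-8 (WBGene00001392, chromosome III) was 30.4 FPKM in ASH against 214 FPKM in non-ASH, 7.04-fold lower in ASH in the authors' deposited table. The DESeq2 fold change of far-8 was -2.76 on the log2 scale, with a DESeq2 adjusted p of 6.12e-05 and a Cuffdiff q of 0.00101 in the authors' deposited table. It had the smallest adjusted p of the 82 lipid genes and the most negative fold change among them. In the epidermal list, 4 of 13 markers were lower in ASH and 4 had positive fold changes, 1 of them called higher. In the amphid glia list 3 of 7 were lower and 3 positive. The pharyngeal list held 6 of 10 lower and 1 positive, the coelomocyte list 3 of 4 lower and 0 positive. The part of these tissues in the far-8 difference was not tested.

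The most abundant of all was far-2, at 6679 FPKM in ASH against 8736 FPKM in non-ASH per the authors' deposited table. Its level ranked 7 among the protein-coding genes in ASH and 3 in non-ASH. With an adjusted p of 0.469 at a log2 fold change of -0.47, it was not called in the authors' deposited table. Its neighbour far-1 was at 1434 FPKM in ASH against 2648 FPKM in non-ASH, at a log2 fold change of -0.99 with an adjusted p of 0.119 in the authors' deposited table. Together far-1 and far-2 made up 53.8% of the summed level of the 83 lipid genes in ASH and 66.3% in non-ASH. Without them, the remaining genes summed to 6973 FPKM in ASH against 5794 FPKM in non-ASH, while all 83 summed to 15086 FPKM and 17179 FPKM. The direction of the summed level therefore turned on these 2 uncalled genes. A far gene at low level, far-4, had a log2 fold change of -2.11 at an adjusted p of 0.174, from 0.267 FPKM in ASH against 2.01 FPKM in non-ASH per the authors' deposited table.

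Among the lbp genes the highest level belonged to lbp-9, at 1157 FPKM in ASH against 911 FPKM in non-ASH, with an adjusted p of 0.530 in the authors' deposited table. The predicted secreted protein gene lbp-2 was at 339 FPKM and 302 FPKM, with an adjusted p of 0.815 in the authors' deposited table. The lysosomal lipid carrier gene lbp-8, known as a partner of lipl-4 in signalling from lysosome to nucleus, was under 1 FPKM in both groups. Its levels were 0.0501 FPKM in ASH against 0.926 FPKM in non-ASH, at a log2 fold change of -1.87 with an adjusted p of 0.274 in the authors' deposited table. Thus lipl-4 and lbp-8 had fold changes of opposite sign, at low levels, and neither passed the test of either tool.

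The acs genes encode acyl-CoA synthetases, which attach fatty acids to coenzyme A. Of the 21 members, acs-1 alone was called by DESeq2, as lower in ASH, and 12 had a positive fold change in the authors' deposited table. Their summed level was 1072 FPKM in ASH against 777 FPKM in non-ASH, and their median log2 fold change was 0.22. The range ran from -1.86 for acs-1 to 1.63 for acs-22.

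The gene acs-1 (WBGene00018488, chromosome V) encodes the synthetase known for activating monomethyl branched-chain fatty acids. Its level was 13.1 FPKM in ASH against 54.4 FPKM in non-ASH, 4.16-fold lower in ASH in the authors' deposited table. The log2 fold change was -1.86 with a DESeq2 adjusted p of 0.0153, and Cuffdiff gave a q of 0.00332 in the authors' deposited table. It was no longer called at an adjusted p under 0.01.

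The synthetase genes with the largest positive fold changes, acs-22 and acs-2, were called by Cuffdiff alone. The mitochondrial synthetase gene acs-2, a fasting-induced target of the receptor NHR-49, was at 271 FPKM in ASH against 99.97 FPKM in non-ASH per the authors' deposited table. This was a log2 fold change of 1.45, with an adjusted p of 0.0660 and a Cuffdiff q of 0.0183 in the authors' deposited table. The gene acs-22, a homolog of mammalian fatty acid transport proteins, was at 27.4 FPKM and 9.17 FPKM in the authors' deposited table. It had a log2 fold change of 1.63, an adjusted p of 0.0564 and a q of 0.0320 in the authors' deposited table. In the other direction Cuffdiff called acs-6, at 0.831 FPKM in ASH against 4.14 FPKM in non-ASH, with a q of 0.0297 beside a DESeq2 adjusted p of 0.168 in the authors' deposited table.

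The synthetase genes of highest mean level were acs-19 and acs-13, and neither was called. The table's annotation names acs-19 an acetyl-coenzyme A synthetase, and its levels were 255 FPKM in ASH against 151 FPKM in non-ASH, at an adjusted p of 0.0741 in the authors' deposited table. For acs-13 the levels were 218 FPKM and 156 FPKM, at an adjusted p of 0.173 in the authors' deposited table.

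**Figure D2:**
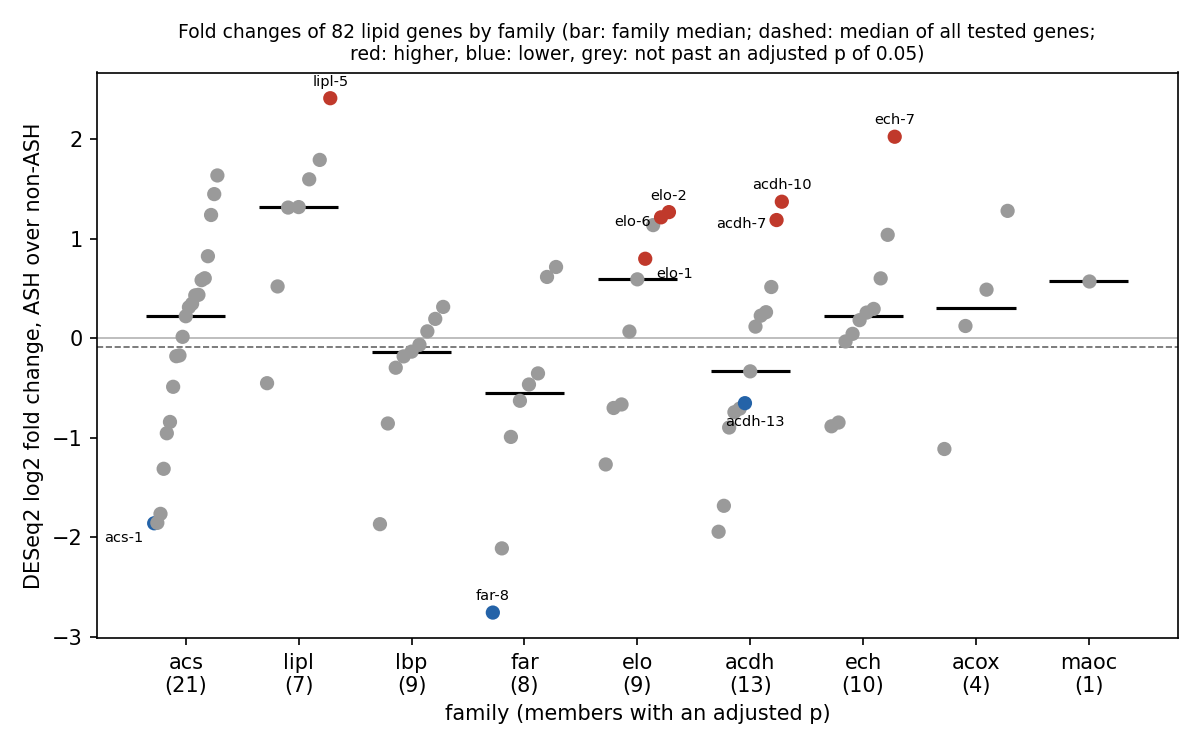
DESeq2 log2 fold change (y axis, ASH over non-ASH) of the 82 tested lipid genes by family (x axis, number of members), with red and blue points for genes called higher or lower and bars at the family medians. The lipl median of 1.32 and the elo median of 0.59 lie above the dashed median of all tested genes at -0.09, and the far median of -0.55 lies below it.

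The elongase genes split into an abundant group, in which 3 genes were higher in ASH, and a scarce group, in which DESeq2 called none. Of 9 elo genes, 3 were higher and none lower in the authors' deposited table. Elongases add a malonyl-CoA-derived unit to an acyl-CoA. The family's summed level was 1096 FPKM in ASH against 637 FPKM in non-ASH, and its median log2 fold change was 0.59 with 6 of 9 positive. The intestinal marker sum was also larger in ASH, as given above, and its part in the elongase values was not tested.

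The gene elo-1 (WBGene00001239, chromosome IV), which acts in polyunsaturated fatty acid synthesis, was at 479 FPKM in ASH against 293 FPKM in non-ASH per the authors' deposited table. DESeq2 gave elo-1 a log2 fold change of 0.80 with an adjusted p of 0.0350, and Cuffdiff, at a q of 0.263, did not call it in the authors' deposited table. The gene elo-2 (WBGene00001240, chromosome IV), which encodes the palmitate elongase, was at 118 FPKM and 52.6 FPKM in the authors' deposited table. Its log2 fold change was 1.27, with an adjusted p of 0.0489 and a q of 0.0383 in the authors' deposited table. All 3 elongase calls were lost at an adjusted p under 0.01, and elo-1 also missed a 2-fold change.

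The gene elo-6 (WBGene00001244, chromosome IV) acts with elo-5 in the synthesis of monomethyl branched-chain fatty acids, the substrates of ACS-1. It was at 288 FPKM in ASH against 128 FPKM in non-ASH, at a log2 fold change of 1.21, an adjusted p of 0.0161 and a q of 0.0238 in the authors' deposited table. For elo-5, singled out after its values were seen, the levels were 97.4 FPKM and 45.1 FPKM at a log2 fold change of 1.13 per the authors' deposited table. Its adjusted p of 0.0539 missed the threshold, and so did its q of 0.366 in the authors' deposited table. Within this branched-chain route elo-6 was thus higher in ASH and acs-1 lower.

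Of the remaining elongase genes, elo-3 was at 106 FPKM in both groups. The others, elo-4, elo-7, elo-8 and elo-9, stayed under 5 FPKM in both groups. Among these elo-7, the neighbour of elo-1, was at 0.761 FPKM in ASH against 3.02 FPKM in non-ASH. Cuffdiff called it lower at a q of 0.0468, where DESeq2 gave an adjusted p of 0.441 in the authors' deposited table.

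The enzymes that complete the elongation cycle, and those that supply malonyl-CoA or consume it, were read from a list of 5 genes. Of these, let-767 and hpo-8 were higher in ASH, and fasn-1 was lower in the authors' deposited table. The gene let-767, which encodes the ketoacyl-CoA reductase, was at 357 FPKM in ASH against 149 FPKM in non-ASH, at a log2 fold change of 1.32 with an adjusted p of 0.000100 in the authors' deposited table. The hydroxyacyl-CoA dehydratase gene hpo-8 was at 298 FPKM and 133 FPKM, at a log2 fold change of 1.16 with an adjusted p of 0.00250 in the authors' deposited table. Cuffdiff called neither, with a q of 0.195 for let-767 and 0.0515 for hpo-8 in the authors' deposited table. The fatty acid synthase gene fasn-1, whose product builds palmitate, was at 4.53 FPKM in ASH against 36.2 FPKM in non-ASH per the authors' deposited table. Its log2 fold change was -2.45, with an adjusted p of 0.000905 and a q of 0.00101 in the authors' deposited table. The enoyl-CoA reductase gene art-1 and the acetyl-CoA carboxylase gene pod-2 had log2 fold changes of 0.44 and 0.39 and were not called.

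**Figure D3:**
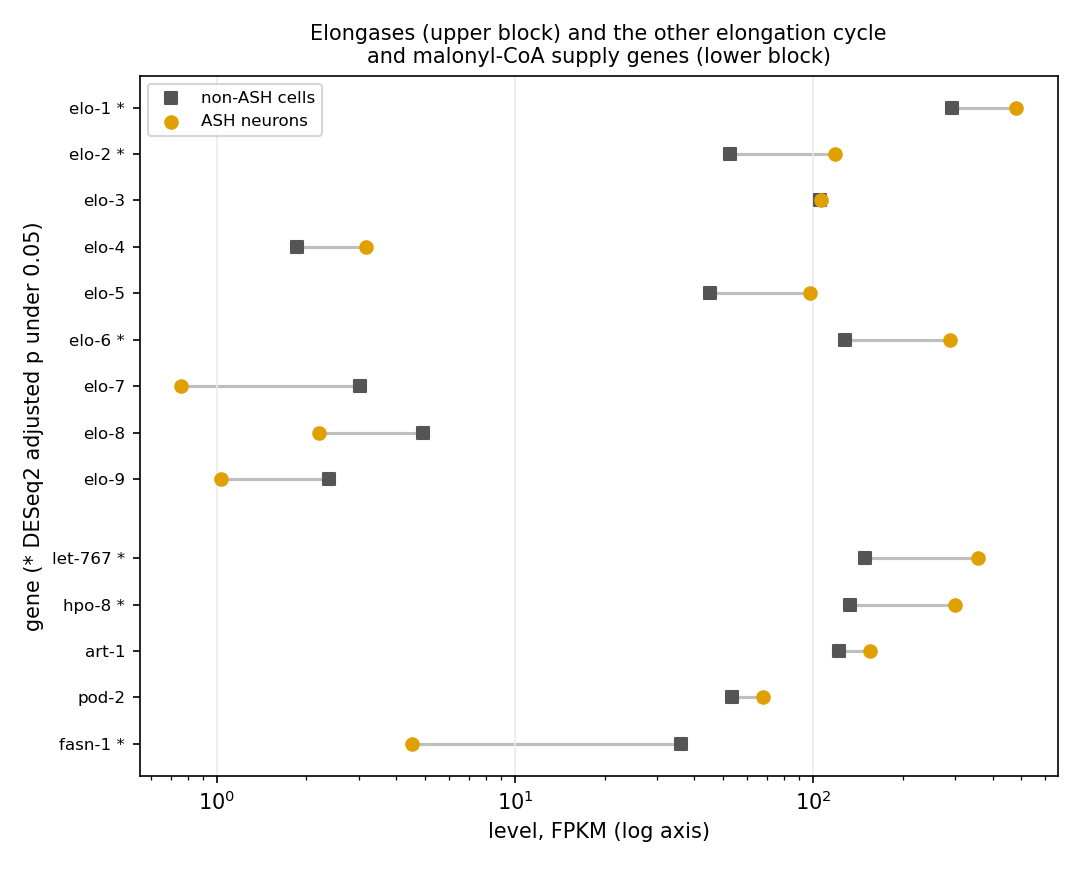
Level in FPKM (log x axis) of the 9 elongase genes and of 5 genes of the elongation cycle and malonyl-CoA supply (y axis), as grey squares for non-ASH cells and yellow circles for ASH neurons joined by a line. The asterisks mark a DESeq2 adjusted p under 0.05: elo-1, elo-2, elo-6, let-767 and hpo-8 lie to the right in ASH, and fasn-1 lies to the left at 4.53 FPKM against 36.2 FPKM.

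Beta-oxidation genes moved in both directions. Of 13 acdh genes, 2 were higher in ASH and 1 was lower. Of 10 ech genes 1 was higher, and none of 4 acox genes or maoc-1 was called in the authors' deposited table. Acyl-CoA dehydrogenases introduce the double bond in mitochondria, and the enoyl-CoA hydratases add water across it. The summed levels differed little between the groups, with 906 FPKM in ASH against 980 FPKM in non-ASH for acdh and 624 FPKM and 650 FPKM for ech.

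The gene acdh-10 (WBGene00020366, chromosome X), annotated as a medium-chain dehydrogenase, was at 123 FPKM in ASH against 48.6 FPKM in non-ASH per the authors' deposited table. Its log2 fold change was 1.37, with an adjusted p of 0.00102 and a Cuffdiff q of 0.00762 in the authors' deposited table. The adjacent gene acdh-7 (WBGene00020812, chromosome X) was at 84.6 FPKM and 37.6 FPKM, at a log2 fold change of 1.19, an adjusted p of 0.00627 and a q of 0.0278 in the authors' deposited table. Both tools called both genes higher in ASH. The gene acdh-13 (WBGene00001566, chromosome IV) was at 15.8 FPKM in ASH against 27.5 FPKM in non-ASH, at a log2 fold change of -0.65 with an adjusted p of 0.0123 in the authors' deposited table. It was the smallest called change of the 10. Cuffdiff did not call acdh-13, at a q of 0.238 in the authors' deposited table, and its DESeq2 call was lost at an adjusted p under 0.01 and under a 2-fold minimum.

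A pair of dehydrogenase genes was called lower by Cuffdiff alone. The gene acdh-2 was at 11.01 FPKM in ASH against 64.9 FPKM in non-ASH, with a q of 0.00186 beside a DESeq2 adjusted p of 0.115 in the authors' deposited table. For acdh-8 the levels were 1.52 FPKM and 10.4 FPKM, with a q of 0.00261 beside an adjusted p of 0.131 in the authors' deposited table. The most abundant dehydrogenase gene was acdh-1, which acts in the propionate shunt, the vitamin B12-independent route of propionate breakdown. Its levels were 375 FPKM in ASH against 470 FPKM in non-ASH, at an adjusted p of 0.684 in the authors' deposited table. Second by the mean of both groups was acdh-3, at 114 FPKM and 110 FPKM with an adjusted p of 0.685 in the authors' deposited table.

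The hydratase gene ech-7 (WBGene00001156, chromosome I) was at 144 FPKM in ASH against 33.4 FPKM in non-ASH, a ratio of 4.31 in the authors' deposited table. Its log2 fold change of 2.02 had an adjusted p of 0.000205 and a Cuffdiff q of 0.0362 in the authors' deposited table. It had the smallest adjusted p among the 7 higher lipid genes. The most abundant hydratase gene was ech-6, which acts in the propionate shunt with acdh-1. It was at 226 FPKM in ASH against 371 FPKM in non-ASH, at a log2 fold change of -0.85 with an adjusted p of 0.222 in the authors' deposited table. The other 8 hydratase genes had log2 fold changes from -0.89 for ech-1.1 to 1.04 for ech-9, and none was called by either tool.

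Peroxisomal oxidation shortens very long chains and the side chains of ascarosides, the worm's pheromones. In it acyl-CoA oxidases (acox) act first, followed by the hydratase MAOC-1, the dehydrogenase DHS-28 and the thiolase DAF-22. Of the 4 acox genes and maoc-1, 0 were called by DESeq2 or Cuffdiff, and 0 had an unadjusted DESeq2 p under 0.05 in the authors' deposited table. Among the 4 acox genes 3 had positive log2 fold changes and acox-2 a negative one, of -1.11. Positive but uncalled were also maoc-1 at 0.57, dhs-28 at 0.72 and daf-22 at 0.83. The DESeq2 adjusted p was 0.413 for dhs-28 and 0.381 for daf-22 in the authors' deposited table. The gene acox-1, now named acox-1.1, was at 31.6 FPKM in ASH against 11.5 FPKM in non-ASH, at an adjusted p of 0.318 and a q of 0.0527 in the authors' deposited table. For maoc-1 the levels were 69.5 FPKM and 46.4 FPKM, at an adjusted p of 0.599 in the authors' deposited table. The second oxidase by level, acox-5, was at 10.6 FPKM and 9.06 FPKM, at an adjusted p of 0.908 in the authors' deposited table. The remaining pair was scarce, with acox-3 under 1 FPKM in both groups and acox-2 at 0.0554 FPKM in ASH against 1.23 FPKM in non-ASH.

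Genes that work beside these families were read from 8 lists, which include the elongation list above. Of their 74 tested genes, 6 (8.11%) were higher in ASH and 2 (2.70%) lower in the authors' deposited table, beside 5.32% and 4.44% of all genes. Among all genes with at least 5 FPKM in a group, a limit not set on the lists, DESeq2 called 7.24% higher and 5.67% lower. Cuffdiff called 4 of the 74 higher and 1 lower, beside 3.58% and 3.53% of all tested genes. A list of 9 other enzymes, of beta-oxidation and of steps linked to it, held 1 higher gene, hacd-1, a hydroxyacyl-CoA dehydrogenase. It was at 364 FPKM in ASH against 77.9 FPKM in non-ASH, at a log2 fold change of 2.19, an adjusted p of 0.0136 and a q of 0.00101 in the authors' deposited table.

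The lipid droplet and neutral lipase list held 1 higher gene of 5, the perilipin gene plin-1, which coats lipid droplets. It was at 333 FPKM in ASH against 200.3 FPKM in non-ASH, at a log2 fold change of 0.90 with an adjusted p of 0.0321 in the authors' deposited table. Cuffdiff did not call plin-1, at a q of 0.272 in the authors' deposited table. Of 17 genes for peroxisome biogenesis and transport, 13 had positive fold changes and 1 was called higher, prx-13, which acts in import of matrix proteins. It was at 30.2 FPKM and 6.22 FPKM, at a log2 fold change of 2.06 with an adjusted p of 0.0233 and a q of 0.00101 in the authors' deposited table. All 12 regulators of fat metabolism had positive fold changes, from 0.05 for sbp-1 to 1.35 for nhr-80, beside 45.7% positive among all tested genes, and 1 was called higher. By Cuffdiff 9 of the 12 were positive, with mdt-15, daf-16 and nhr-66 just below 0. The called gene, the nuclear receptor gene nhr-13, was at 7.65 FPKM and 4.06 FPKM, at a log2 fold change of 0.81 with an adjusted p of 0.0375 but a Cuffdiff q of 0.431, not a call, in the authors' deposited table.

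The carnitine shuttle brings acyl groups into mitochondria. Of its 7 genes DESeq2 called 0, with 1 higher by unadjusted p under 0.05 and 1 higher by Cuffdiff in the authors' deposited table. Of 7 acyl-CoA-binding protein genes both tools called 0, with 2 higher by unadjusted DESeq2 p. The log2 fold changes ran from -0.84 to 1.36 in the first list and from -0.48 to 1.41 in the second. Of 12 genes for propionate and branched-chain breakdown 0 were higher by either tool. DESeq2 called 1 lower and Cuffdiff 0, and at an unadjusted DESeq2 p under 0.05 there were 2 on each side. The lower gene, bckd-1B, listed as tag-173 and encoding a subunit of the branched-chain ketoacid dehydrogenase, was at 47.3 FPKM in ASH against 76.2 FPKM in non-ASH. Its log2 fold change was -0.70 at an adjusted p of 0.0330 and a q of 0.250 in the authors' deposited table.

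The 2 tools of the study named partly different lipid genes. DESeq2 called 10 and Cuffdiff 16, of which 8 were shared in the same direction, 80% of the DESeq2 calls and 50% of the Cuffdiff calls. The sign of the fold change was the same by both tools for 79 of 82 genes. Of the 18 genes called by either tool, elo-1 and acdh-13 were called by DESeq2 alone and acs-2, acs-22, acs-6, lipl-1, lipl-3, elo-7, acdh-2 and acdh-8 by Cuffdiff alone. DESeq2 gave 5 of those 8 an unadjusted p under 0.05, and the exceptions were lipl-1, lipl-3 and elo-7.

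For 4 of the 82 tested lipid genes the log2 ratio of the FPKM values differed from the DESeq2 fold change by more than 1. For lipl-3 the FPKM ratio was 4.27 on the log2 scale and the DESeq2 fold change 1.59 in the authors' deposited table. For acdh-8 the values were -2.78 and -1.68, for lbp-8 -4.21 and -1.87, and for acox-2 -4.47 and -1.11, ratio before fold change. In each of the 4 at least 1 group was under 2 FPKM, and the DESeq2 value was the nearer to 0.

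**Figure D4:**
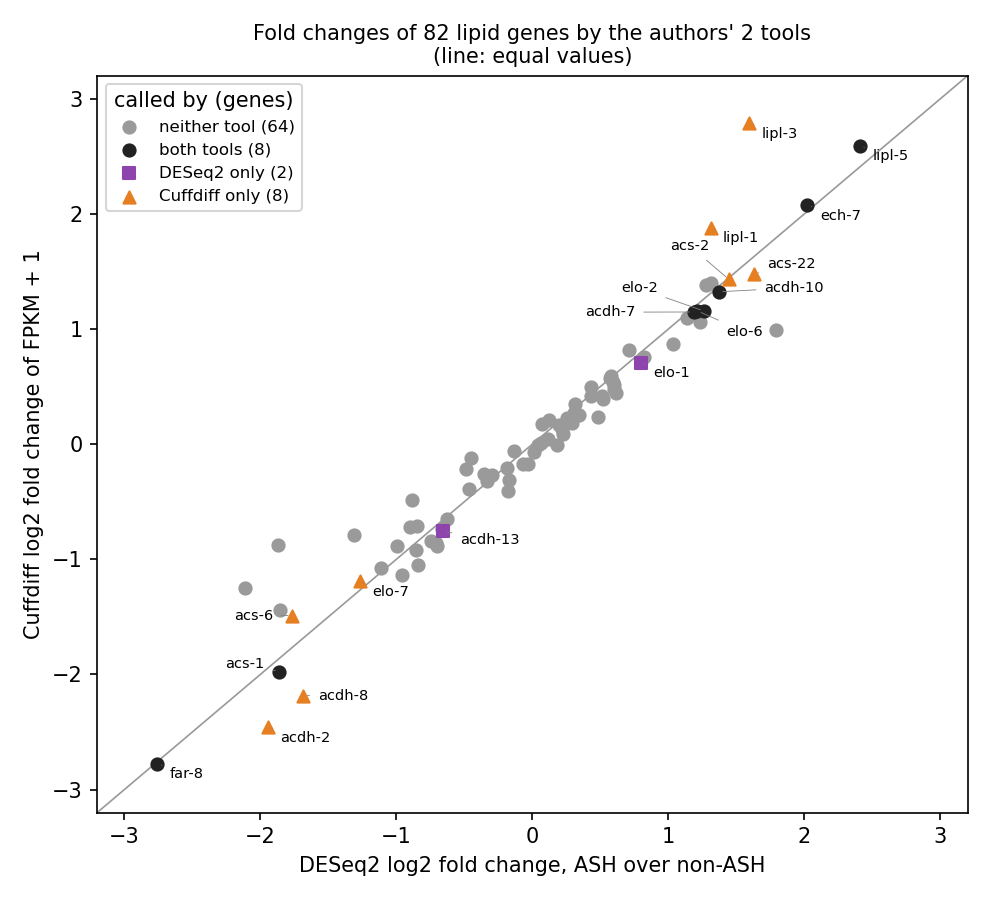
DESeq2 log2 fold change (x axis) against Cuffdiff log2 fold change of FPKM plus 1 (y axis), both ASH over non-ASH, for the 82 tested lipid genes, with the line of equal values. Black circles are the 8 genes called by both tools, purple squares the 2 called by DESeq2 alone and orange triangles the 8 called by Cuffdiff alone, of which lipl-3 lies farthest above the line.

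The lipid genes lay on all 6 chromosomes, with 23 on V, 15 on IV, 13 on I, 12 each on II and III and 8 on X. Chromosome IV held 6 of the 9 elo genes and 4 of the 10 calls, and chromosome V held 7 of the 8 lipl genes. In the gene order of the RefSeq annotation of the WBcel235 assembly, 20 of the 83 lay directly beside another in 8 runs, 4 of 2 genes and 4 of 3. The rule by which the authors counted reads shared by close copies was not given in the sources used, so values of near-identical neighbours are uncertain.

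Neighbours had alike fold changes in some runs and unlike ones in others. The pair acdh-10 and acdh-7 differed by 0.18 in log2 fold change, and both were higher in ASH. The pair elo-1 and elo-7 differed by 2.07, with elo-1 higher in ASH at 479 FPKM and elo-7 at 0.761 FPKM there. In the run of far-5, far-3 and far-4 the fold changes spanned 2.83, and the levels in ASH ran from 0.267 FPKM for far-4 to 87.8 FPKM for far-3. The run of acox-1, acox-2 and acox-3 spanned 2.39. The predicted secreted binding protein genes lbp-3, lbp-1 and lbp-2 spanned 1.05, and far-1 and far-2 spanned 0.53. Of the 10 called lipid genes, elo-1, acdh-10 and acdh-7 lay in such runs.

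**Figure D5:**
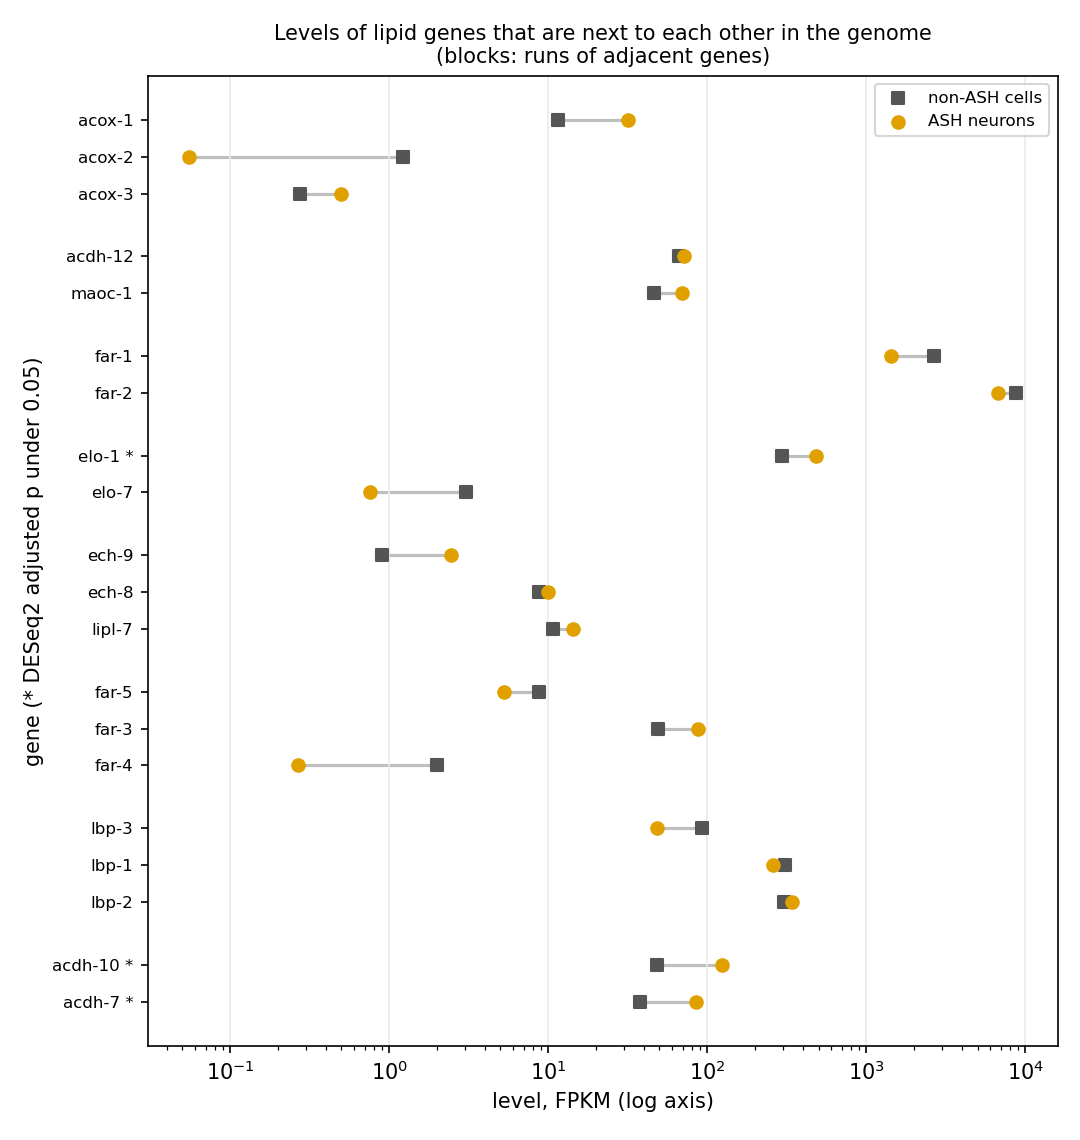
Level in FPKM (log x axis) of the 20 lipid genes that lie next to another one in the genome, in 8 blocks of adjacent genes (y axis), as grey squares for non-ASH cells and yellow circles for ASH neurons joined by a line. Asterisks mark a DESeq2 adjusted p under 0.05, and the lowest block shows acdh-10 and acdh-7 both to the right in ASH, at 123 FPKM and 84.6 FPKM.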

How the data were processed

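Libraries were strand-specific and poly(A)-selected, per the labels' protocols. The submitters' processing notes name Bowtie2 2.2.1 and TopHat2 2.0.13, FastQC, HTSeq with DESeq2, and Cufflinks with Cuffdiff. Build, annotation and settings are not given in the sources used here, and hence coordinates are left out.

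The authors' deposited table of 46273 rows (1 repeat left out) was the only file used. Its group levels are FPKM with 1 added by the authors, per the file headers and the values, and the 1 was subtracted here. Its log2 fold changes were computed by the authors with both tools, and Cuffdiff's are the log2 ratios of the deposited levels. Its p-values and q-values are those of the authors' tools, and the DESeq2 adjusted p equals a Benjamini-Hochberg adjustment over 16802 genes. There is no value per library, so depth is unknown, no interval is given, and the tests per library that the design foresaw could not be run. Current symbols were found for 43253 of 46272 identifiers.

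The members, gene lists and alternatives were chosen with earlier results of these data known. Named are members called by either tool, the 2 of highest mean level in each family, the 5 largest and 5 smallest of the authors' DESeq2 fold changes and called genes of the 8 pathway lists. Members named beyond that were picked after their values were seen, or to complete a family. The 9 marker lists are given by counts, and the ASH, intestinal and epidermal lists also by sums. Single markers were named after their values were seen. Counting was tested on simulated data, with Python 3.11.15, pandas 2.3.3, numpy 2.4.6 and matplotlib 3.10.9. Alternatives were an adjusted p under 0.01, a 2-fold minimum, Cuffdiff, both tools, a floor of 5 FPKM, other pseudocounts and current symbols.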

Additional observations from a re-analysis of the deposited data

How the results depend on the processing

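In the authors' deposited table, an adjusted p under 0.01 left 4 of the 7 higher and 1 of the 3 lower lipid genes, the latter far-8, and ended the calls of acs-1, elo-1, elo-2, elo-6 and acdh-13. By Cuffdiff q, 6 lipid genes were lower and 10 higher. With a floor of 5 FPKM in a group, the median log2 fold change was 0.24 instead of 0.12, and the counts of 7 and 3 held. A 2-fold minimum left 6 and 2, both tools together 6 and 2, and adding genes by current symbol 7 and 3. The adjusted p was kept as deposited for the floor and for the added genes. Every lipid gene called by DESeq2 was above the floor, so the counts under it were fixed. The median of FPKM log2 ratios was 0.07 with a pseudocount of 0.1, 0.07 with 1 and 0.05 with 5, and 0.11 over all members with a DESeq2 fold change. Of the 18 genes called by either tool, none changed direction under Cuffdiff. The stricter p and the 2-fold minimum only filter genes, so they could not change a direction. No paired analysis was possible because the table holds no values of single libraries, and for the same reason no library could be left out in turn. Depth cannot be read from FPKM, so for genes under 1 FPKM in a group the precision of a fold change is unknown.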

Other observations

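Gene names have changed since the table was made. A further 4 genes of the authors' deposited table carry only a sequence name where the current symbol would place them in these families, namely F59F4.1 (now acox-1.6), C32E8.6 (now acs-24), F08A8.4 (now acox-1.4) and F58F9.7 (now acox-3). Those 4 have log2 fold changes of 0.93, 0.92, 0.44 and -0.43 in that order in the authors' deposited table, with adjusted p of 0.144, 0.494, 0.751 and 0.734, so none was called. The acox-1, acox-2, acox-3 and acox-5 of the table are now acox-1.1, acox-1.2, acox-1.3 and acox-1.5, so the acox-3 of the text is not the gene that carries this symbol today.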
